A study of Mus musculus with 8 samples.

Results

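The 43 genes described here encode the non-collagen proteins of the extracellular matrix and the enzymes that build, crosslink and cut it. They were chosen by symbol, and each matched 1 of the 54752 Ensembl gene IDs in the count table. They comprise 8 adhesive and matricellular glycoproteins, 8 elastic fibre glycoproteins, 2 nidogens, 6 laminins, 7 proteoglycans, 3 crosslinking enzymes, 5 proteases and 4 protease inhibitors. Of the 43, 38 passed the filter on low counts and were tested, and the other 5 were listed at 0 in all 8 libraries. RNA-seq libraries came from cardiomyocytes isolated on a Langendorff system, in which the heart is perfused with enzyme. All mice carried floxed Carm1 (Carm1fl/fl). Carm1 is an arginine methyltransferase that modifies histones and other proteins. KO mice received an AAV carrying CRE, and control mice an AAV carrying GFP. The 4 groups were control and KO at 1 week (1w) and at 3 weeks (3w), with 2 libraries each. Virus was given on postnatal day 1 for replicate 1 and day 2 for replicate 2 of each 1w group. In each 3w group it was given on day 3 for replicate 1 and day 4 for replicate 2. Age and day of injection therefore moved together, and the 2 libraries of a group also differed in day of injection. The hearts were mosaic, with infected and uninfected cells, and no group received CRE without floxed alleles. The labels do not state that the 2 libraries of a group are separate animals, though their days of injection differ. The p-values therefore speak only for the variation among the libraries at hand. Technical variation and that of animal or day of injection cannot be told apart in it.

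Each cardiomyocyte and capillary is coated by a basement membrane, in which trimers of laminin α, β and γ chains are tied by nidogens and perlecan to collagen IV. Between the cells lies an interstitial matrix of collagen fibres, fibronectin, elastic fibres and proteoglycans, which in the heart is laid down mainly by fibroblasts. Matricellular proteins such as periostin, tenascin C and the thrombospondins bind this matrix and cell receptors, and are known to be high in the developing and the injured heart. Metalloproteases of the MMP and ADAMTS families cut the matrix, TIMPs inhibit them, and lysyl oxidases crosslink collagen and elastin.

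Libraries held 20818285 to 53671626 counts, and the 43 genes took 0.177% to 0.744% of them. Levels are given as CPM, counts scaled to the TMM-adjusted size of each library, and a gene is called changed at an adjusted p under 0.05 over all 14665 genes tested. Carm1 itself lay at 39.1 to 40.5 CPM in the 4 control libraries, at 22.2 and 22.4 in KO at 1w and at 17.3 and 17.8 in KO at 3w. Its log2 fold change was -0.83 ± 0.055 (SE) at 1w and -1.17 ± 0.06 at 3w. The summed counts of Y-linked genes were 4282 to 6765 in the control 3w and KO 1w libraries and 0 to 3 in the control 1w and KO 3w libraries. At each age alone, Carm1 loss and this split of the libraries therefore cannot be told apart. The split has opposite directions at the 2 ages, so in the mean of the 1w and 3w KO effects, which is given for each class, it cancels only where its effect has the same size at both ages, which was not tested. The difference between the 2 KO effects carries it in full. The split also runs between the ages within each genotype, with the high counts at 3w in control and at 1w in KO. Age and this split therefore cannot be told apart in either genotype alone. In the mean of the 2 age changes it cancels only where its effect has the same size in both genotypes, which was not tested.

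Thbs3, Ogn, Timp1, Timp3 and Timp4 were listed at 0 in all 8 libraries. In the GENCODE M21 annotation of mm10, the whole body of each lies inside that of another gene: Thbs3 inside Mtx1, Ogn inside Cenpp, Timp1 inside Syn1, Timp3 inside Syn3 and Timp4 inside Syn2. The same held across the table, where 1315 of 1345 protein-coding genes lying wholly inside other genes (97.8%) were at 0, against 3339 of 11721 lying outside any other (28.5%). Of 749 that lie wholly inside genes of the opposite strand only, 742 were at 0. Of 1107 that lie wholly inside other genes with under 50% of their exons in other exons, 1089 were at 0. Actc1 and Pln, abundant transcripts of heart muscle whose bodies also lie wholly inside other genes, were at 0 too. No level can therefore be read for these 5 genes, and the inhibitors are represented by Timp2 alone. Whether reads were counted over exons or over whole gene bodies is not stated and was not tested. Ogn and Timp1 were at 0 although 0% of their exon bases lie in exons of other genes. Ranks per length, and the size of ratios and shares between genes below, use exon length and hold only if exons were counted. That condition is not established, so those ranks and sizes are uncertain. Tnc has 77% and Loxl2 85.6% of its body inside other genes. Of exon bases, 72.6% in Tnc, 41.7% in Loxl2, 20.8% in Lox, 20.1% in Fbn1, 12.2% in Lama2 and 10.1% in Nid1 lie inside other genes. The share is lower in the other members tested. The values of these genes may rest on part of their reads.

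**Figure D1:**
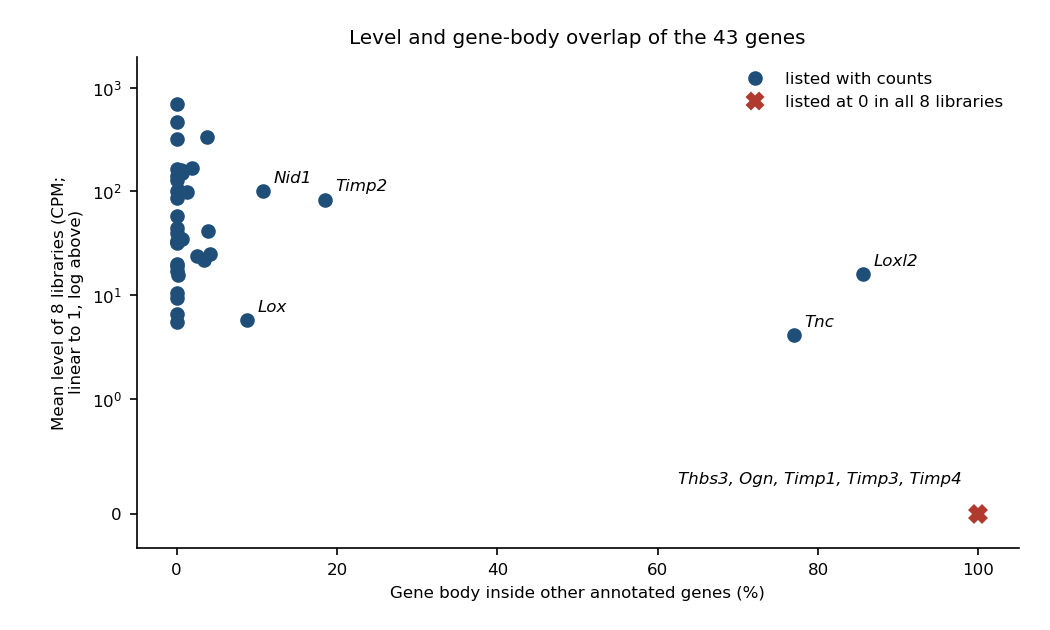
Mean level over the 8 libraries (vertical axis, CPM, linear up to 1 and logarithmic above) against the share of the gene body inside other annotated genes (horizontal axis, percent), with 1 point for each of the 43 genes. Thbs3, Ogn, Timp1, Timp3 and Timp4 lie together at 100% overlap and a level of 0, and Tnc and Loxl2 are the only others past 20%.

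Matrix transcripts were higher after CRE at both ages. Summed over the members, the 1w controls came to 4066 and 4118 CPM and the 1w KO libraries to 6039 and 6004 CPM. The 3w controls came to 2345 and 2328 CPM and the 3w KO libraries to 2843 and 2855 CPM, with no overlap between groups. At 1w, 37 of the 38 tested were called higher in KO and 1 was called lower, where 23% of all genes tested were called higher and 20% lower. The members' median log2 fold change at 1w was 0.69, beside 0.02 over all genes tested. At 3w, 31 were called higher and 5 lower, beside 24.4% and 24.8% of all genes, with a median of 0.75 beside 0.01. In the mean of both ages, 35 were called higher and 3 lower, beside 27.5% and 25.3% of all genes, with a median of 0.77. An additive fit of age and KO, which assumes 1 KO effect at both ages, called 31 higher and 0 lower. The calls over both ages for Fbln1, Lama5 and Lamb2 (lower) and for Fbn2, Lama2, Fmod and Adamts5 (higher) were lost in that fit. Changes were modest for most: 5 members were at least 2-fold higher at 1w (4.92% of all genes) and 14 at 3w (7.59%). The 30 members higher at both ages include Fn1, Postn, Thbs1, Fbn1, Bgn, Loxl1 and Mmp2. Fbln1, Fmod, Lama2, Lama5 and Lamb2 were higher at 1w and lower at 3w, Fbn2 was lower at 1w and higher at 3w, and Thbs2 and Adamts5 were higher at 1w and not called at 3w.

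**Figure D2:**
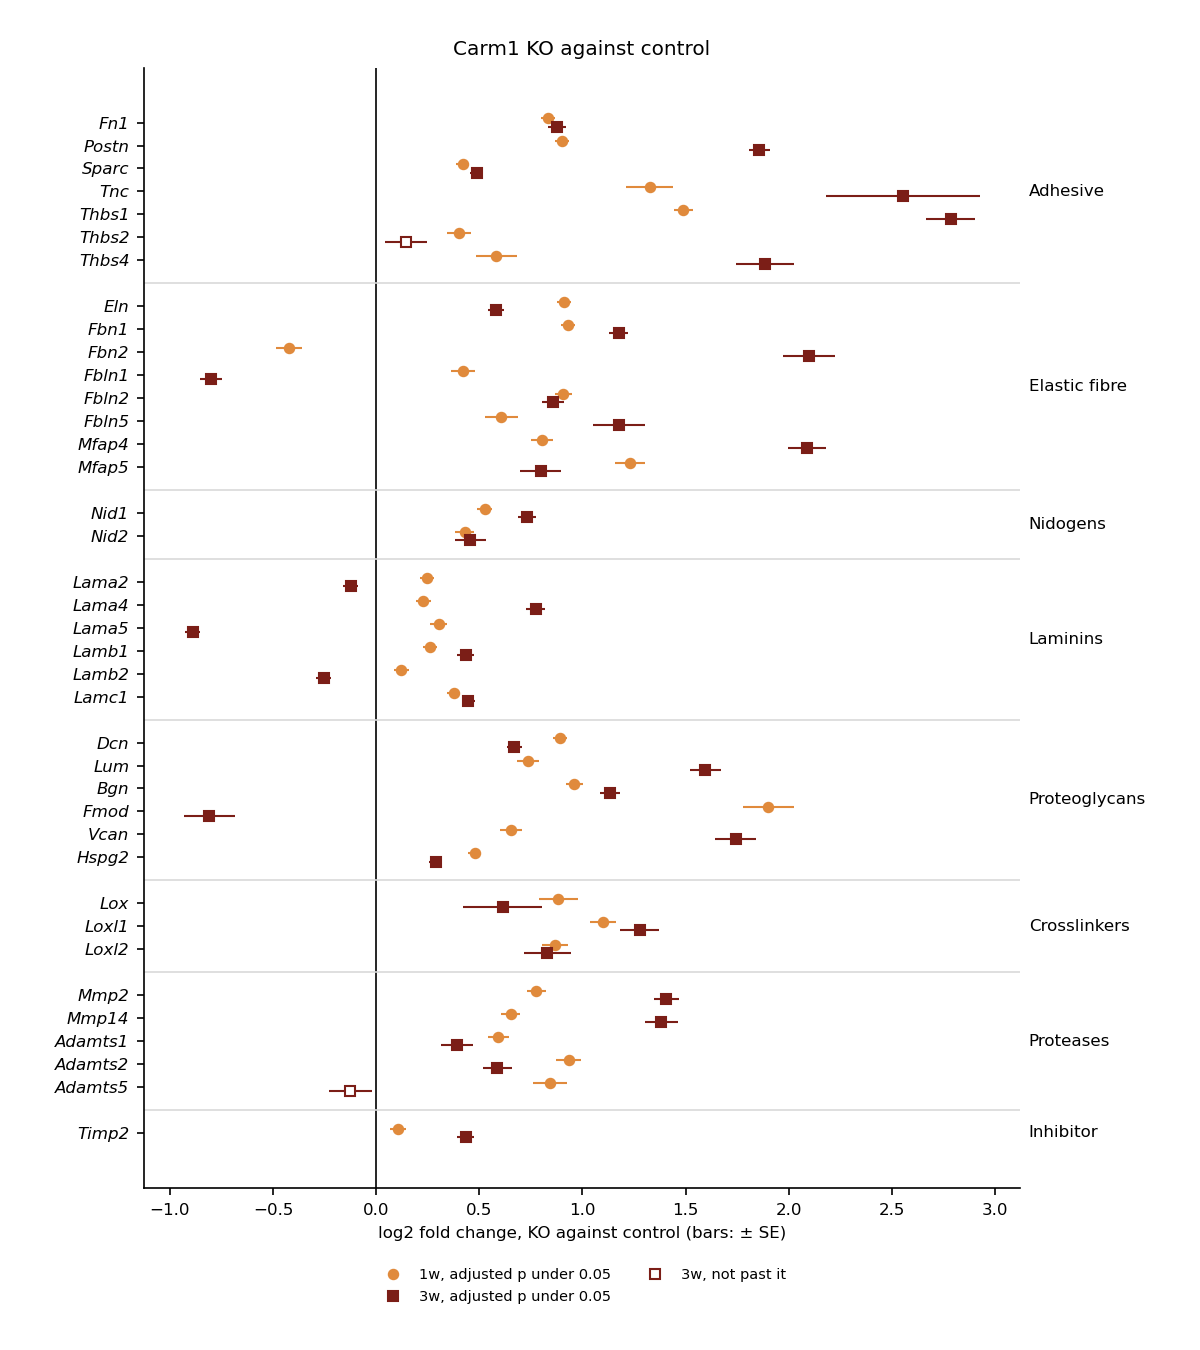
Log2 fold change of KO against control (horizontal axis, bars ± SE) at 1w and at 3w for the 38 members tested, grouped by class, with open symbols where the adjusted p did not pass 0.05. At 1w 37 members sit right of 0, and at 3w the 5 called lower are Fbln1, Lama2, Lama5, Lamb2 and Fmod.

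Across the 38 members, the KO effects at 1w and at 3w had a Pearson's r of 0.20 and a Spearman's rho of 0.39, as a description across genes that are measured in the same libraries and are not independent. By the test of the difference between the KO effects, 17 members had a higher effect at 3w and 11 a lower one, beside 17.6% and 17.9% of all genes.

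From 1w to 3w, most members fell in both genotypes. Within each genotype, age cannot be told apart from the split in Y-linked transcripts. In control, 33 of 38 were called lower, 4 higher and 1 was not called, beside 36% of all genes lower and 34.9% higher, with a median log2 fold change of -1.75 beside -0.03 over all genes. In KO, 35 were called lower and 2 higher, beside 34.6% and 33.2% of all genes, with a median of -1.37. Falls of at least 2-fold were seen for 28 members in control (17.4% of all genes) and for 28 in KO (14.9%). Averaged over the 2 genotypes, 34 were called lower and 3 higher, beside 39.4% and 37.4% of all genes. Only Lama5 and Lamb2 were called higher with age in both genotypes among the 38. Across members the changes with age in control and in KO had a Pearson's r of 0.83 and a Spearman's rho of 0.84. Markers of some other heart cell types also fell with age. In control, 11 of 11 smooth muscle and pericyte markers tested were called lower, as were 12 of 14 endothelial markers (1 higher) and 8 of 11 cardiac fibroblast markers (2 higher), while 10 of 10 cardiomyocyte markers were called higher. In KO these counts were 8 of 11 lower (1 higher), 12 of 14 lower (1 higher), 9 of 11 lower (1 higher) and 9 of 10 higher (1 lower). Epicardial markers were higher with age for 5 of 8 and lower for 3 in control, and lower for 7 of 8 in KO, and macrophage and myeloid markers were higher for 6 of 11 and lower for 1 in control and higher for 1 and lower for 7 in KO. Endothelial markers summed to 1314 and 1312 CPM in the 1w controls and 1494 and 1485 in the 1w KO libraries, and at 3w to 571 and 568 and 618 and 642. Smooth muscle and pericyte markers summed to 1851 and 1779 CPM in the 1w controls and 2316 and 2337 in the 1w KO libraries, and at 3w to 1163 and 1119 and 2034 and 2039. In bulk libraries, fewer cells of a type and less RNA per cell cannot be told apart, and the part of these lists in the members' age changes was not tested.

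**Figure D3:**
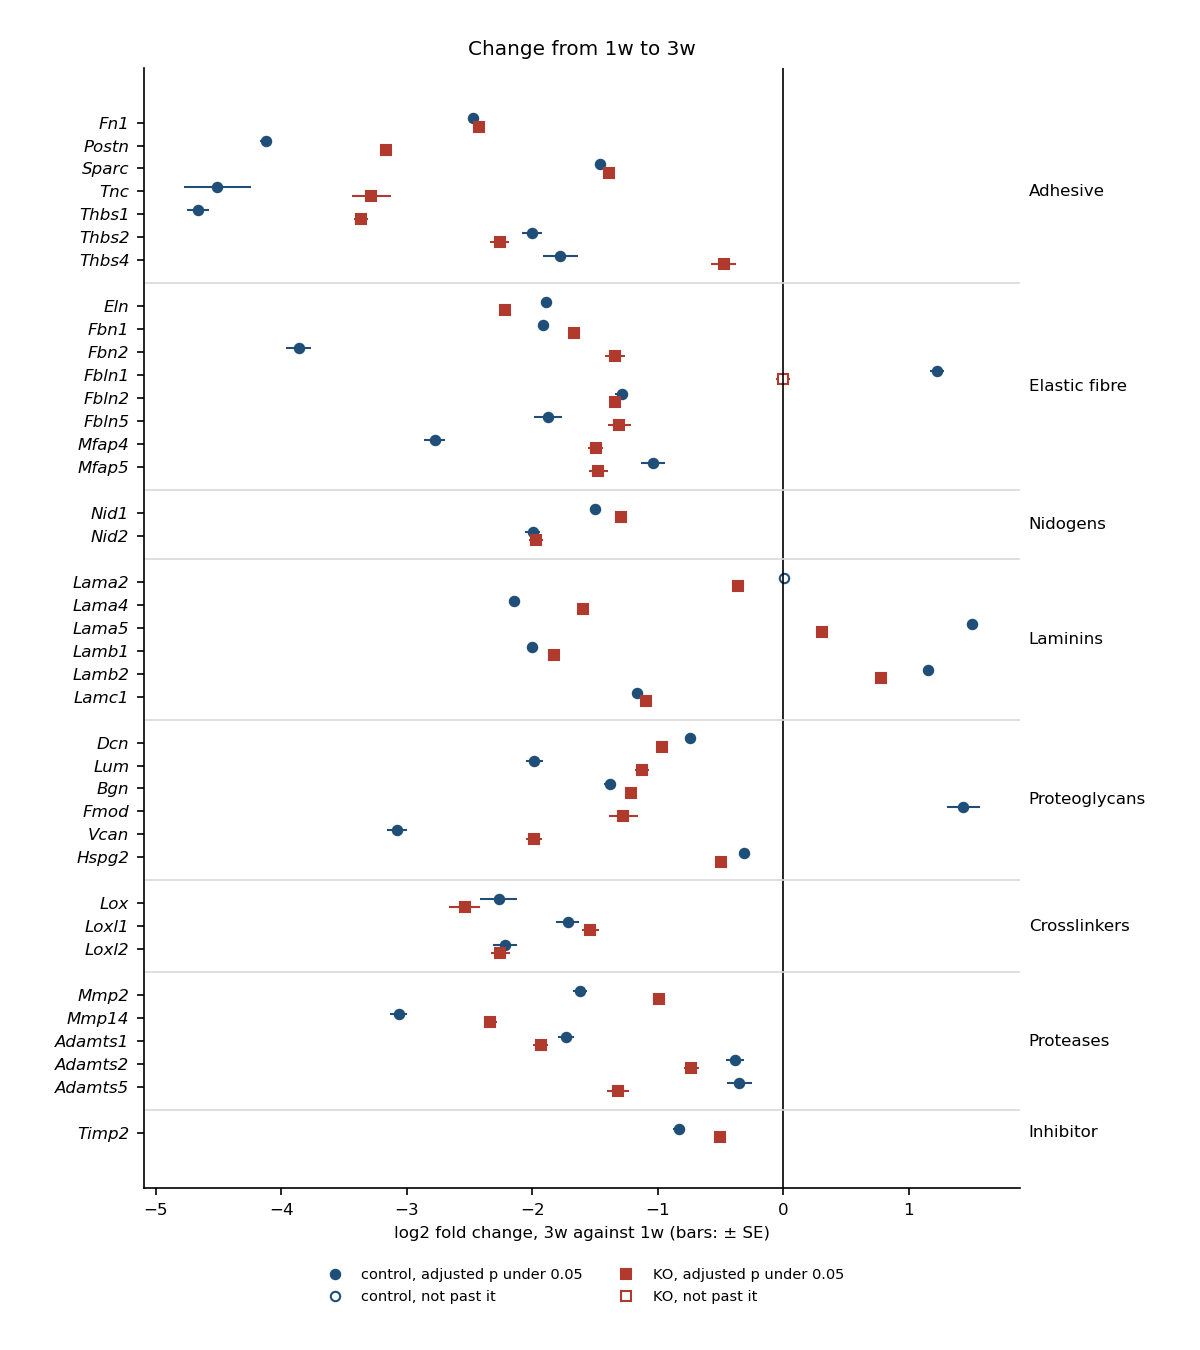
Log2 fold change from 1w to 3w (horizontal axis, bars ± SE) in control and in KO for the 38 members tested, grouped by class, with open symbols where the adjusted p did not pass 0.05. Most points lie left of 0, and Lama5 and Lamb2 lie right of it in both genotypes.

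Promoter sequences are shown for 5 members that the results turn on. RefSeq's table for GRCm38.p6, which covers 250 bases before to 50 bases after each start, held an entry for 27 of the 43 genes, with 31 starts. Postn is shown as a matricellular gene with a deep fall with age and a match to the TATA letters. Tnc and Thbs2 also have such a match, in Thbs2 in the reverse direction. The distance of matches from the start was not used. The other start of Postn, not shown, has 0 TATA matches. Thbs4 is shown for 2 overlapping TEAD matches, and Lamb1 and Lamb2 as the β chains that moved in opposite directions with age. Fmod is the member whose KO effect differed most between the ages. Each runs 5′ to 3′ on the gene's own strand, and capitals mark matches to a motif in either direction. They lie at chr3:54360857-54361156 (plus strand), chr13:92794769-92795068 (minus), chr12:31265043-31265342 (plus), chr9:108479612-108479911 (plus) and chr1:134037004-134037303 (plus).
Postn: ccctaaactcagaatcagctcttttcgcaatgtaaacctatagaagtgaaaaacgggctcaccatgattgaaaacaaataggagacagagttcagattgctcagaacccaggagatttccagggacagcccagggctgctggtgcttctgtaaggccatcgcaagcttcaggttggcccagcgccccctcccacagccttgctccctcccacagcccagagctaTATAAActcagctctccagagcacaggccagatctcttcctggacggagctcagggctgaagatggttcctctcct
Thbs4: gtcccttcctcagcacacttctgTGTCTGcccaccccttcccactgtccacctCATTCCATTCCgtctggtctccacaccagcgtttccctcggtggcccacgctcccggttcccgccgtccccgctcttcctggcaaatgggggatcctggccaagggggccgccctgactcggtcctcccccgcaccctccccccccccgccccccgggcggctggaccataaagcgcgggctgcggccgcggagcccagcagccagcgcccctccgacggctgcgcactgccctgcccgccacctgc
Lamb1: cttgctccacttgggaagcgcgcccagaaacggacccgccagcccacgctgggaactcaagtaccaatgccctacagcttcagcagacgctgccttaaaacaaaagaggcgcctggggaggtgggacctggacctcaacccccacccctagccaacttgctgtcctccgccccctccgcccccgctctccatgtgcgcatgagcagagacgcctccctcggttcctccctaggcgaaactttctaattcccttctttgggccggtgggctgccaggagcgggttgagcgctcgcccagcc
Lamb2: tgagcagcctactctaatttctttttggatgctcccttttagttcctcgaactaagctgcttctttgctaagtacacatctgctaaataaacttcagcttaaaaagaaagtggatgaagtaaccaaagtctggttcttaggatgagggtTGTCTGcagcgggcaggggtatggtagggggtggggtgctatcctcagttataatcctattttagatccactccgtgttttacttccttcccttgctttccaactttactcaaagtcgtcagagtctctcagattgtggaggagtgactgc
Fmod: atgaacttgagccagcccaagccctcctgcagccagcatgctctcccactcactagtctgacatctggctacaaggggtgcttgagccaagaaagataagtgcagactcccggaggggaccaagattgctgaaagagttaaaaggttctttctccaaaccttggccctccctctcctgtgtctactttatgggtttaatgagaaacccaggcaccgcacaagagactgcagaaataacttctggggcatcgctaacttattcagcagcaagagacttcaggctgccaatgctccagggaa
The motifs searched, on both strands, were AP-1 (TGANTCA), TEAD (GGAATG), SMAD (CAGACA) and the TATA box (TATAAA), and matches may overlap one another. SMAD letters were found in 10 of the 31 promoters (32.3%, against 21% of 32851 promoters of the same length), TATA in 6 (19.4% against 13.6%) and TEAD in 4 (12.9% against 14.7%). AP-1 letters were found in 0 of 31, against 7.81%. The windows of a gene with 2 starts can overlap and hold the same match, as both of Fbln1 and of Tnc do. Counted by gene, SMAD letters were in 8 of 27, TATA in 5 of 27 and TEAD in 4 of 27. These are matches of letters in a short window and no measure of binding. The member promoters had a median GC content of 59.0%, against 52.7% over the table.

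Adhesive and matricellular glycoproteins were higher in KO and fell with age. Of the 7 tested, all 7 were called higher in KO at 1w and 6 at 3w, and all 7 fell with age in both genotypes. Counts for this and each later class are to be read against the shares of all genes tested. In KO, 23% were higher and 20% lower at 1w, and 24.4% and 24.8% at 3w. With age, 36% were lower and 34.9% higher in control, and 34.6% and 33.2% in KO. Over both ages the KO effects ran from 0.27 for Thbs2 to 1.94 for Tnc and 2.14 for Thbs1, the 2 highest of all members. Fibronectin (Fn1), the adhesive scaffold on which other matrix assembles, was at 201 and 191 CPM in the 1w controls and 347 and 349 in the 1w KO libraries. Fn1 at 3w read 34.4 and 36.4 in the controls and 65.0 and 64.7 in the KO libraries. KO was higher at each age with nearly the same fold, 0.83 ± 0.034 at 1w and 0.88 ± 0.043 at 3w (log2 ± SE, edgeR adjusted p = 1.3e-30 and 7.6e-27). Periostin (Postn, chromosome 3, 54361109 to 54391037), a matricellular protein of activated fibroblasts, was at 215 and 205 CPM in the 1w controls and 389 and 394 in the 1w KO libraries. Postn at 3w read 12.4 and 11.5 in the controls and 42.7 and 44.4 in the KO libraries. Its KO effect was 0.90 ± 0.034 at 1w and 1.86 ± 0.052 at 3w, and it fell with age by 4.13 on the log2 scale in control and by 3.17 in KO. Thrombospondin 1 (Thbs1), which can release active TGF-beta from its latent form, was at 40.6 and 40.5 CPM in the 1w controls and 116 and 112 in the 1w KO libraries. Thbs1 at 3w read 1.50 and 1.73 in the controls and 11.0 and 11.1 in the KO libraries. The KO libraries were above the controls of the same age, with log2 fold changes of 1.49 ± 0.045 and 2.78 ± 0.12. Tenascin C (Tnc), a glycoprotein of developing and injured tissue, lay much lower, at 3.90 and 4.59 CPM in the 1w controls and 11.3 and 10.3 in the 1w KO libraries. Tnc at 3w read 0.119 and 0.283 in the controls and 1.13 and 1.08 in the KO libraries. Control at 3w rested on 5 and 8 counts, and the KO effect there, 2.55 ± 0.37, has the widest error of the members' KO effects. The difference between its KO effects, 1.23 ± 0.42, was called (edgeR adjusted p = 0.016), but was 0.64 and not called without control 3w replicate 1 (edgeR adjusted p = 0.37) and 1.84 without control 3w replicate 2.

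Thbs4, a thrombospondin of muscle and tendon, was at 7.30 and 6.26 CPM in the 1w controls and 9.75 and 10.3 in the 1w KO libraries. Thbs4 at 3w read 1.93 and 1.98 in the controls and 7.56 and 6.87 in the KO libraries. With age it fell by 1.78 on the log2 scale in control and by 0.47 in KO, and the KO effect was 1.88 ± 0.14 at 3w beside 0.58 ± 0.099 at 1w. Thbs2 was at 28.9 and 27.6 CPM in the 1w controls and 37.3 and 37.0 in the 1w KO libraries. Thbs2 at 3w read 6.39 and 7.88 in the controls and 7.38 and 8.12 in the KO libraries, so that the groups differed at 1w (0.40 ± 0.059) and not past the threshold at 3w (0.14 ± 0.1, edgeR adjusted p = 0.24). Sparc, a collagen-binding protein and the member with the highest level per length in 3 of the 4 groups, was at 583 and 574 CPM in the 1w controls and 778 and 769 in the 1w KO libraries. Sparc at 3w read 215 and 205 in the controls and 289 and 300.2 in the KO libraries. Its KO effect was 0.42 ± 0.03 and 0.49 ± 0.032, and the test of a difference between the ages did not pass (0.07), though it did without control 3w replicate 1 (0.12, edgeR adjusted p = 0.019).

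**Figure D4:**
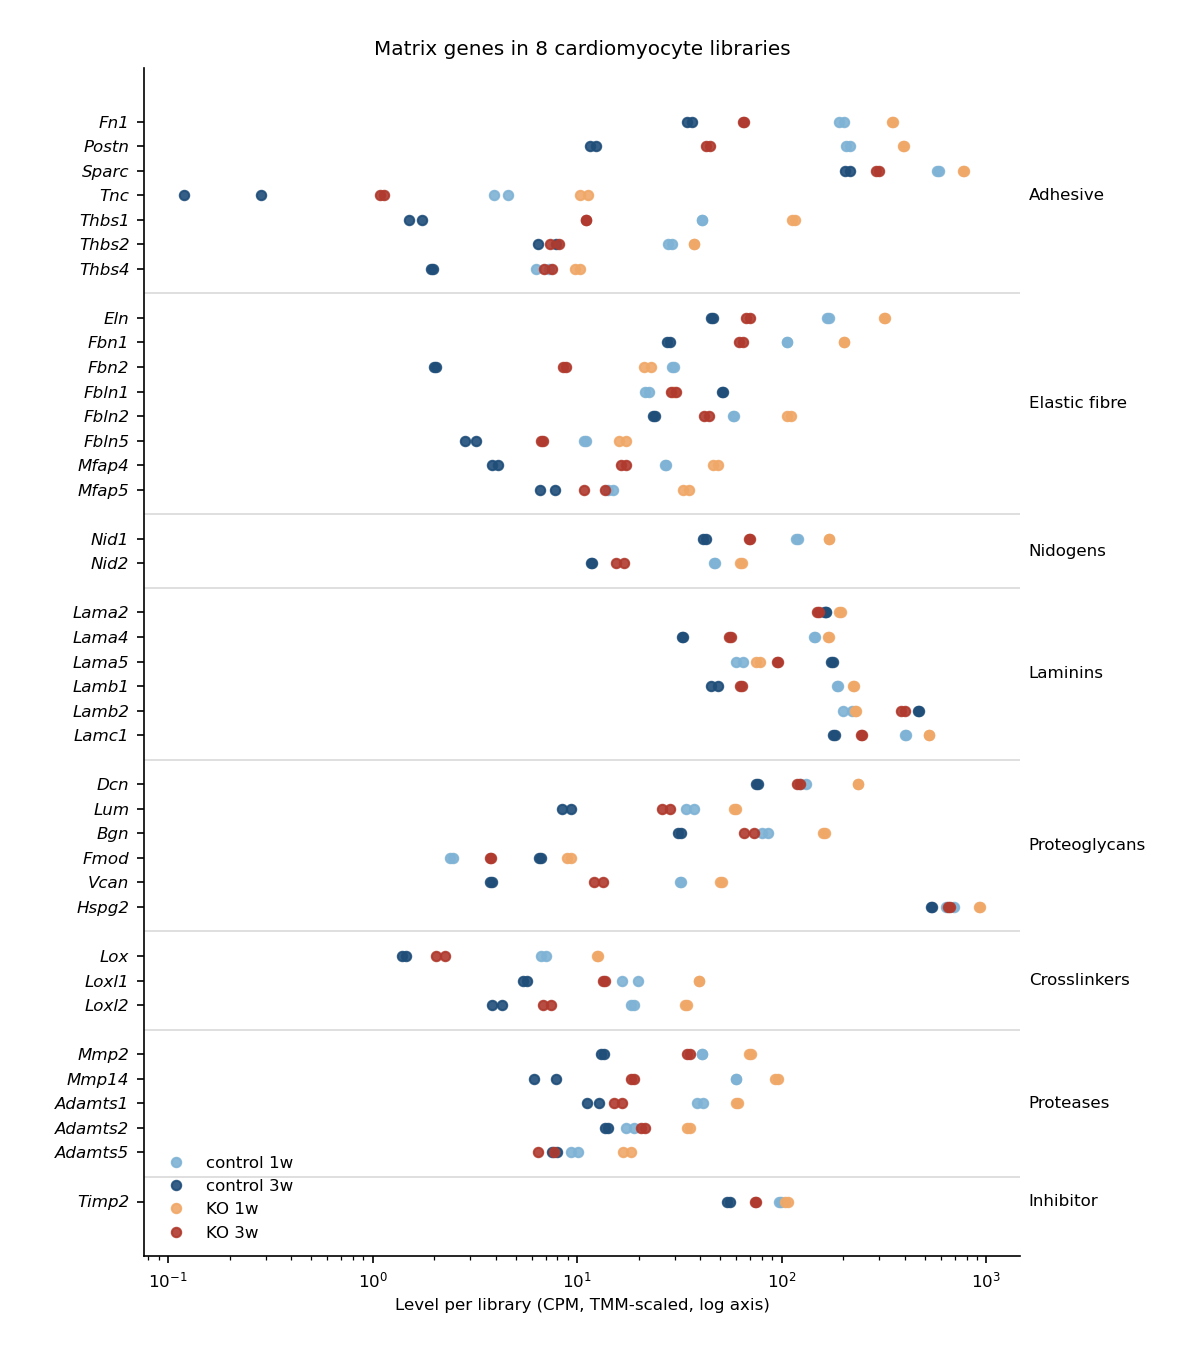
Levels of the 38 members tested (CPM on a log axis) in each of the 8 libraries, grouped by class, with control and KO at 1w and 3w in separate colours. The 2 libraries of a group lie close together for nearly all genes, and most members are lower at 3w than at 1w and higher in KO than in control.

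Elastic fibre genes were called higher in KO at each age for 7 of 8, and 7 of 8 fell with age in each genotype. Over both ages the KO effects of 7 ran from 0.75 for Eln to 1.45 for Mfap4, and that of Fbln1 was -0.19. Those of Fbn2 and Fbln1 were not called in the additive fit (edgeR adjusted p = 0.46 and 0.58). Elastin (Eln), the core of the fibre, was at 167 and 171 CPM in the 1w controls and 319 and 317 in the 1w KO libraries. Eln at 3w read 45.1 and 46.2 in the controls and 69.5 and 66.9 in the KO libraries. KO was higher by 0.91 ± 0.033 at 1w and 0.58 ± 0.04 at 3w on the log2 scale, so that its effect was lower at 3w (-0.33 ± 0.052). The fibrillins form the microfibrils on which elastin is laid, and their 2 genes differed. Fbn1 was at 106 and 106 CPM in the 1w controls and 200.3 and 202 in the 1w KO libraries. Fbn1 at 3w read 28.3 and 27.5 in the controls and 62.0 and 64.4 in the KO libraries, with KO effects of 0.93 ± 0.036 and 1.18 ± 0.045. Fbn2, the fibrillin known for its embryonic and early postnatal expression, was at 29.1 and 29.8 CPM in the 1w controls and 21.1 and 22.9 in the 1w KO libraries. Fbn2 at 3w read 2.00 and 2.05 in the controls and 8.83 and 8.51 in the KO libraries. It was lower in KO at 1w (-0.42 ± 0.063) and higher at 3w (2.10 ± 0.13), and is the only member called lower at 1w. Per exon length, Fbn1 stood at 4.86 and 4.75 times Fbn2 in the 1w controls and 12.7 and 11.8 times in the 1w KO libraries. The ratio at 3w was 19.0 and 18 in the controls and 9.41 and 10.1 in the KO libraries. KO was thus above control in this ratio at 1w and below it at 3w. With 2 libraries a group, no exact permutation test of such a ratio can go below a two-sided p of 0.333, so ratios are given as descriptions. The size of a ratio depends on the lengths used, whereas its fold change between groups does not.

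Fibulins and microfibril-associated proteins bind elastin and the microfibrils. Fbln1 ran against the class, at 21.4 and 22.5 CPM in the 1w controls and 29.4 and 29.6 in the 1w KO libraries. Fbln1 at 3w read 51.6 and 50.9 in the controls and 28.6 and 30.3 in the KO libraries. It rose with age in control (1.22 ± 0.055) and was not called in KO (edgeR adjusted p = 0.98), and its KO effect was 0.42 ± 0.058 at 1w and -0.80 ± 0.053 at 3w. Mfap4 was at 27.2 and 27.0 CPM in the 1w controls and 48.5 and 46.1 in the 1w KO libraries. Mfap4 at 3w read 3.84 and 4.10 in the controls and 16.3 and 17.2 in the KO libraries, with a higher KO effect at 3w (2.09 ± 0.093) than at 1w (0.80 ± 0.055). Mfap5 was at 14.1 and 14.9 CPM in the 1w controls and 35.2 and 32.9 in the 1w KO libraries. Mfap5 at 3w read 6.58 and 7.74 in the controls and 10.8 and 13.7 in the KO libraries, and had its higher effect at 1w (1.23 ± 0.073 beside 0.80 ± 0.1), a difference that was not called without control 3w replicate 2 or without KO 3w replicate 1. Fbln2 (log2 fold changes 0.91 and 0.86) and Fbln5, which is needed to assemble elastic fibres (0.61 and 1.18), were called higher in KO at both ages.

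Laminins divided by chain. All 6 were called higher in KO at 1w, and at 3w 3 were higher and 3 lower. With age in control, Lama4, Lamb1 and Lamc1 fell, Lama5 and Lamb2 rose, and Lama2 was not called. Over both ages the KO effects were 0.50 for Lama4, 0.41 for Lamc1, 0.35 for Lamb1 and -0.29 for Lama5, the last not called in the additive fit (edgeR adjusted p = 0.39). The γ1 chain (Lamc1), shared by most laminin trimers, was at 402 and 405 CPM in the 1w controls and 524 and 523 in the 1w KO libraries. Lamc1 at 3w read 178 and 181 in the controls and 243 and 246 in the KO libraries, and was higher in KO at both ages (0.38 ± 0.031 and 0.45 ± 0.032). Lama4, an α chain best known from the vessel wall, was at 146 and 144 CPM in the 1w controls and 169 and 171 in the 1w KO libraries. Lama4 at 3w read 32.6 and 32.9 in the controls and 56.6 and 55.3 in the KO libraries, and fell with age by 2.14 in control and 1.60 in KO on the log2 scale. Lama5 (chromosome 2, 180176373 to 180225859) moved the other way, at 59.7 and 64.3 CPM in the 1w controls and 78.5 and 75.1 in the 1w KO libraries. Lama5 at 3w read 178 and 174 in the controls and 96.1 and 94.4 in the KO libraries. Its rise with age was 1.5 ± 0.04 in control and 0.31 ± 0.04 in KO, and KO was higher at 1w (0.30 ± 0.041) and lower at 3w (-0.89 ± 0.038). Lama2, the α chain of the muscle basement membrane, had small changes, at 165 and 161 CPM in the 1w controls and 196 and 191 in the 1w KO libraries. Lama2 at 3w read 165 and 163 in the controls and 148 and 152 in the KO libraries. Its age change in control was not called (0.01 ± 0.034, edgeR adjusted p = 0.83), and its KO effect at 3w, -0.12 ± 0.034, was not called with upper-quartile scaling (-0.07, edgeR adjusted p = 0.086).

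Lamb1 was at 186 and 188 CPM in the 1w controls and 226 and 222 in the 1w KO libraries. Lamb1 at 3w read 45.2 and 48.6 in the controls and 62.5 and 63.8 in the KO libraries, a fall with age of 2.00 in control and 1.82 in KO on the log2 scale. Lamb2 (chromosome 9, 108479736 to 108490530), the β chain of the mature neuromuscular and muscle basement membrane, rose from 199 and 221 to 465 and 469 CPM in control and from 229.8 and 228 to 402 and 381 CPM in KO. Per exon length, Lamb2 stood at 1.75 and 1.92 times Lamb1 in control at 1w and 16.8 and 15.7 times at 3w, and in KO at 1.66 and 1.68 and then 10.5 and 9.73 times. The control and KO libraries did not overlap in this ratio at either age, and were farther apart at 3w. Among the 3 α chains per exon length, Lama5 made up 18.9% in control and 19.7% in KO at 1w, and 52.3% in control and 35.6% in KO at 3w (means of 2 libraries). Lama4 made up 41.7% and 41.0% at 1w and 9.17% and 19.7% at 3w. Lamb2's KO effect was 0.12 at 1w and was lost without any of 4 libraries (control 1w replicate 1, where it was 0.05, either control 3w replicate or KO 1w replicate 1), while that at 3w was -0.26 ± 0.035. Over both ages the effects on Lama2 (0.06 ± 0.024) and Lamb2 (-0.07 ± 0.025) were close to 0, and neither was called in the additive fit (edgeR adjusted p = 0.55 for both). The Lama2 call was lost without any 1 library other than control 1w replicate 1 or KO 1w replicate 2 (values 0.04 to 0.05). The Lamb2 call was lost without any 1 library other than control 1w replicate 1 or KO 3w replicate 1 (values -0.09 to -0.03).

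**Figure D5:**
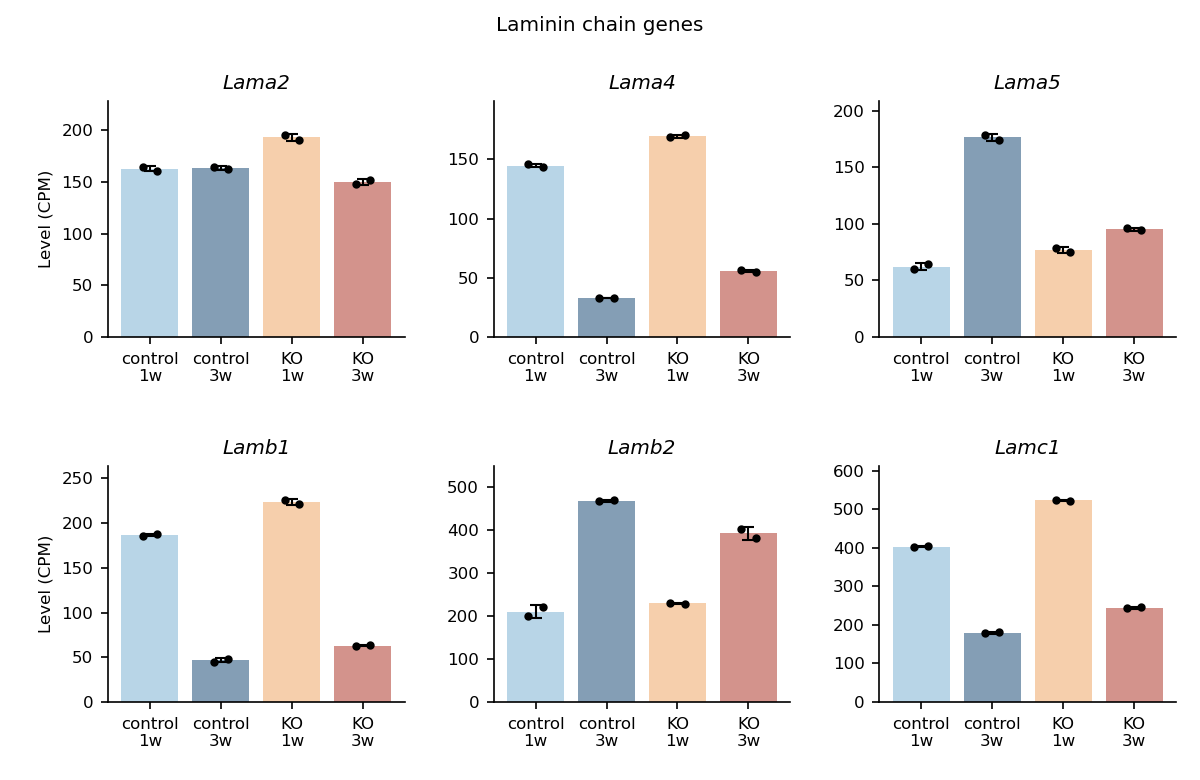
Levels of the 6 laminin chain genes (vertical axes, CPM from 0) in the 4 groups, with bars for the mean of 2 libraries, error bars for ± SD and points for the libraries. Lama5 and Lamb2 are higher at 3w than at 1w, with the 3w KO bar below the 3w control bar, whereas Lama4, Lamb1 and Lamc1 are lower at 3w.

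The nidogens, which tie laminin to collagen IV, were higher in KO and fell with age, with KO effects over both ages of 0.63 for Nid1 and 0.44 for Nid2. Nid1 was at 119.5 and 117 CPM in the 1w controls and 170.4 and 170.1 in the 1w KO libraries. Nid1 at 3w read 41.3 and 42.4 in the controls and 69.9 and 68.7 in the KO libraries. Nid2 was at 46.8 and 47.2 CPM in the 1w controls and 62.5 and 64.0 in the 1w KO libraries. Nid2 at 3w read 11.8 and 11.7 in the controls and 15.5 and 16.8 in the KO libraries. KO was higher at both ages for both, with log2 fold changes of 0.53 ± 0.036 and 0.73 ± 0.043 for Nid1 and 0.43 ± 0.047 and 0.46 ± 0.073 for Nid2. Perlecan (Hspg2), the large heparan sulfate proteoglycan of basement membranes, was at 635 and 698 CPM in the 1w controls and 932 and 924 in the 1w KO libraries. Hspg2 at 3w read 542 and 534 in the controls and 664 and 649 in the KO libraries. Its fall with age was small (-0.31 ± 0.032 in control and -0.50 ± 0.031 in KO), and per exon length it was among the 3 highest members in every group.

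Proteoglycans were called higher in KO for 6 of 6 tested at 1w and for 5 of 6 at 3w, and fell with age for 5 of 6 in control and 6 of 6 in KO. Over both ages the KO effects ran from 0.38 for Hspg2 to 1.20 for Vcan, and that of Fmod was not called in the additive fit (edgeR adjusted p = 0.51). Decorin, biglycan, lumican and fibromodulin are small leucine-rich proteoglycans that bind collagen fibrils and govern their spacing. Decorin (Dcn) was at 132 and 123 CPM in the 1w controls and 235 and 235 in the 1w KO libraries. Dcn at 3w read 75.2 and 76.5 in the controls and 118 and 123 in the KO libraries. Biglycan (Bgn) was at 85.4 and 80.4 CPM in the 1w controls and 159.6 and 162 in the 1w KO libraries. Bgn at 3w read 32.3 and 30.9 in the controls and 65.6 and 73.2 in the KO libraries. Both were higher in KO at each age, by 0.89 ± 0.035 and 0.67 ± 0.038 for Dcn and by 0.96 ± 0.041 and 1.13 ± 0.048 for Bgn on the log2 scale. Lumican (Lum) was at 37.4 and 34.0 CPM in the 1w controls and 59.9 and 58.3 in the 1w KO libraries. Lum at 3w read 9.35 and 8.44 in the controls and 25.8 and 28.4 in the KO libraries, with KO effects of 0.74 ± 0.052 and 1.60 ± 0.074. Fibromodulin (Fmod, chromosome 1, 134037254 to 134048277) had another order of groups, at 2.39 and 2.46 CPM in the 1w controls and 8.90 and 9.32 in the 1w KO libraries. Fmod at 3w read 6.51 and 6.68 in the controls and 3.78 and 3.73 in the KO libraries. KO was higher by 1.90 ± 0.12 at 1w and lower by 0.81 at 3w (edgeR adjusted p = 1.5e-20 and 9.9e-08). With age it rose in control (1.43 ± 0.13) and fell in KO (-1.28 ± 0.11). Versican (Vcan), a large hyaluronan-binding proteoglycan of the developing heart, was at 31.7 and 32.3 CPM in the 1w controls and 50.9 and 49.8 in the 1w KO libraries. Vcan at 3w read 3.81 and 3.75 in the controls and 12 and 13.4 in the KO libraries, and its KO effect was 0.65 ± 0.053 at 1w and 1.74 ± 0.099 at 3w.

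All 3 crosslinking enzymes were higher in KO at both ages and fell with age, with KO effects over both ages of 0.75 for Lox, 0.85 for Loxl2 and 1.19 for Loxl1. Lox, the lysyl oxidase that starts collagen and elastin crosslinks, was at 7.05 and 6.64 CPM in the 1w controls and 12.7 and 12.4 in the 1w KO libraries. Lox at 3w read 1.38 and 1.45 in the controls and 2.05 and 2.27 in the KO libraries. Its effect was 0.88 ± 0.094 at 1w and 0.61 ± 0.19 at 3w, and the 3w call was lost without control 3w replicate 1 (edgeR adjusted p = 0.063) or without KO 3w replicate 2 (edgeR adjusted p = 0.076). Loxl1, needed for elastic fibre upkeep, was at 16.5 and 19.8 CPM in the 1w controls and 39.2 and 39.4 in the 1w KO libraries. Loxl1 at 3w read 5.70 and 5.41 in the controls and 13.3 and 13.7 in the KO libraries, with effects of 1.10 ± 0.064 and 1.28 ± 0.096. Loxl2 was at 18.3 and 18.9 CPM in the 1w controls and 33.7 and 34.3 in the 1w KO libraries. Loxl2 at 3w read 3.81 and 4.28 in the controls and 6.78 and 7.46 in the KO libraries, with effects of 0.87 ± 0.064 and 0.83 ± 0.11. For none of the 3 did the test of a difference between the ages pass.

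All 5 proteases were called higher in KO at 1w, and 4 of the 5 at 3w, and all 5 fell with age in both genotypes. Over both ages the KO effects ran from 0.36 for Adamts5 to 1.09 for Mmp2, beside 0.27 for the inhibitor Timp2. That of Adamts5 was not called in the additive fit (edgeR adjusted p = 0.15). Mmp14, a membrane-bound protease that activates pro-MMP2, was at 59.6 and 59.9 CPM in the 1w controls and 95.5 and 92.2 in the 1w KO libraries. Mmp14 at 3w read 7.87 and 6.11 in the controls and 18.3 and 18.9 in the KO libraries. Its substrate Mmp2, a gelatinase, was at 40.7 and 40.8 CPM in the 1w controls and 69.1 and 70.5 in the 1w KO libraries. Mmp2 at 3w read 13.1 and 13.5 in the controls and 34.5 and 35.7 in the KO libraries. Both had a higher KO effect at 3w (1.38 ± 0.081 for Mmp14 and 1.41 ± 0.061 for Mmp2) than at 1w (0.65 ± 0.046 and 0.78 ± 0.047). Adamts5, which cuts versican and other proteoglycans, was at 9.36 and 10.1 CPM in the 1w controls and 18.3 and 16.7 in the 1w KO libraries. Adamts5 at 3w read 7.49 and 7.91 in the controls and 6.39 and 7.67 in the KO libraries. It was higher in KO at 1w (0.84 ± 0.084), and at 3w the groups overlapped (-0.12 ± 0.11, edgeR adjusted p = 0.34). Adamts1, which also cuts versican (0.59 and 0.39), and Adamts2, which trims procollagen (0.93 and 0.59), were called higher at both ages. Timp2, which inhibits MMPs and takes part in MMP2 activation by MMP14, was at 99.0 and 96.8 CPM in the 1w controls and 103 and 107 in the 1w KO libraries. Timp2 at 3w read 55.8 and 53.6 in the controls and 73.6 and 74.6 in the KO libraries. Its effect was 0.11 ± 0.039 at 1w (edgeR adjusted p = 0.02), a call lost under DESeq2 and without control 1w replicate 2, KO 1w replicate 2 or either KO 3w library, and 0.43 ± 0.042 at 3w. Per exon length, Mmp14 stood at 0.393 and 0.404 of Timp2 in the 1w controls and 0.604 and 0.561 in the 1w KO libraries. This ratio at 3w was 0.0921 and 0.0745 in the controls and 0.163 and 0.166 in the KO libraries, so that KO was above control at both ages.

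Markers of other heart cells also differed between KO and control. Of all genes tested, 23% were called higher and 20% lower at 1w, and 24.4% and 24.8% at 3w. Of 15 cardiac fibroblast markers 11 were tested, and all 11 were called higher in KO at 1w and at 3w, with median log2 fold changes of 0.74 and 0.88. Summed, the list came to 973 and 1004 CPM in the 1w controls and 1803 and 1774 in the 1w KO libraries. The fibroblast sum at 3w was 318 and 325 in the controls and 682 and 683 in KO. Tcf21, Dpep1 and Lamp5 were at 0, and the bodies of Tcf21 and Dpep1 lie wholly inside other genes. The part of fibroblast RNA in the members' changes was not tested.

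The counts for the remaining lists are to be read against the same shares, 23% higher and 20% lower at 1w and 24.4% and 24.8% at 3w. Macrophage and myeloid markers were called higher in KO for 11 of 11 tested at 1w and 10 of 11 at 3w. Their sum was 48.1 and 49.6 CPM in the 1w controls, 161 and 154 in the 1w KO libraries, 87.5 and 85.8 in the 3w controls and 132 and 136 in the 3w KO libraries. Endothelial markers were higher for 10 of 14 and lower for 1 at 1w, and higher for 9 and lower for 2 at 3w. Smooth muscle and pericyte markers were higher for 6 of 11 and lower for 3 at 1w, and higher for 10 and lower for 0 at 3w. Of 5 Schwann markers 4 were tested, and 2 were higher and 0 lower at each age. Most epicardial markers were called higher in KO at 1w, and most were called lower at 3w. They were higher for 7 of 8 at 1w, and 1 of 8 was higher and 5 were lower at 3w. Epicardial sums were 34.2 and 34.4 CPM in the 1w controls, 62.2 and 60.2 in the 1w KO libraries, 25.0 and 23.3 in the 3w controls and 16.7 and 15.8 in the 3w KO libraries. Cardiomyocyte markers, which check the labelled cell type, were abundant in every library and lower in KO. Of these, 8 of 10 tested were called lower and 1 higher at 1w, and 9 of 10 were lower at 3w. Cardiomyocyte sums were 48020.3 and 48817 CPM in the 1w controls, 44409 and 44093 in the 1w KO libraries, 92583 and 96350.2 in the 3w controls and 75395 and 74674 in the 3w KO libraries. The part of these lists in the members' changes was not tested.

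Beyond the 43, further matrix genes and the TGF-beta pathway were measured from lists chosen beside them. Of 61 other matrix genes 43 were tested, of which 27 were called higher and 6 lower in KO at 1w, and 29 and 6 at 3w. Over all genes tested, 23% were higher and 20% lower at 1w, and 24.4% and 24.8% at 3w. With age, 28 of these fell and 8 rose in control (36% and 34.9% of all genes), and 30 fell and 7 rose in KO (34.6% and 33.2%). The most abundant of them, Sparcl1, a relative of Sparc, was at 295 and 280.0 CPM in the 1w controls and 396 and 393 in the 1w KO libraries. Sparcl1 at 3w read 87.8 and 90.0 in the controls and 149 and 155 in the KO libraries. Mmp15, a membrane-type protease, was at 232 and 241 CPM in the 1w controls and 193 and 199 in the 1w KO libraries. Mmp15 at 3w read 152 and 148 in the controls and 146 and 142 in the KO libraries. KO was lower than control at 1w (-0.27 ± 0.034), and the 3w effect was -0.06 ± 0.035 (edgeR adjusted p = 0.18). In the TGF-beta pathway, which drives matrix synthesis, 26 of 27 genes were tested, with 15 called higher and 6 lower in KO at 1w and 18 higher and 2 lower at 3w, to be read against the same shares of all genes. With age, 18 fell and 5 rose in control, and 15 fell and 4 rose in KO. Ltbp4, which stores latent TGF-beta on microfibrils, was at 191 and 219 CPM in the 1w controls and 321 and 314 in the 1w KO libraries. Ltbp4 at 3w read 83.6 and 82.0 in the controls and 148 and 141 in the KO libraries. Ccn2, a matricellular target of the pathway, was at 35.7 and 33.6 CPM in the 1w controls and 156 and 157 in the 1w KO libraries. Ccn2 at 3w read 91.3 and 100.5 in the controls and 118 and 122 in the KO libraries. Ccn1, a relative, was at 32.4 and 33.5 CPM in the 1w controls and 96.8 and 95.1 in the 1w KO libraries. Ccn1 at 3w read 135 and 132 in the controls and 221 and 218 in the KO libraries. Both Ccn genes rose with age in control, by 1.47 ± 0.046 and 2.02 ± 0.041 on the log2 scale, and with age in KO their changes were -0.38 ± 0.038 (called lower) and 1.19 ± 0.035 (edgeR adjusted p = 1.1e-38). Both were higher in KO at each age (2.18 ± 0.044 and 0.33 ± 0.04 for Ccn2, 1.54 ± 0.042 and 0.71 ± 0.035 for Ccn1).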

How the data were processed

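The files give raw counts per gene, which the authors made with featureCounts from HISAT2 alignments to mm10, with FastQC and MultiQC checks, per the submitters' processing notes, which also name DESeq2. No version, annotation or strand setting is stated, so an antisense or overlapping gene cannot be told apart from its partner. All 8 libraries entered 1 edgeR 4.0.16 quasi-likelihood fit (R 4.3.3) of the 4 groups, with TMM scaling (factors 0.759 to 1.23), a filter on low counts (minimum count 10, minimum total 15) and Benjamini-Hochberg adjustment over 14665 genes. There were 7 comparisons: KO against control at each age and averaged, 3w against 1w in each genotype and averaged, and the difference between the KO effects. Standard errors are the log2 fold change over the square root of F. Levels per length (RPKM) were computed from exon bases outside other genes. Their size holds only if reads were counted over exons, which is not stated.

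Symbols came from GENCODE M21, which named 54723 of 54752 IDs. The members, lists and tests were chosen with earlier results of these data known. All members may be named, and of each list of other genes the 4 with the highest mean CPM. The marker genes named as listed at 0 are outside this rule and were chosen after their values were seen. On simulated counts for 14665 genes, false calls were 7.45% of calls for KO at 1w, 5.03% at 3w, 8.02% over both ages, 3.29% for age in control, 5.73% for age in KO, 7.65% for age over both and 7.52% for the difference between the KO effects, beside the nominal 5%. Changes of 1.25-fold were recovered at 30% (the difference) to 72% (KO over both ages), and 4-fold changes at 88% (the difference) to 100% (KO at 1w). The simulation changed a small part of the genes, in random directions, with spreads fitted to these libraries. Far more genes were called in the data, so these rates may not carry over to them. Replicate libraries were not identical and differed by more than counting noise (chi-square per gene 1.45 to 6.40), with a common coefficient of variation of 3.03%. Replicate number also marks the earlier and the later day of injection at each age. Deviations of libraries with the same replicate number correlated at -0.022 to 0.0083 between groups, so no deviation shared by number was seen. Mitochondrially encoded genes took 40.7% to 47.8% of counts. Alternatives were other scaling, filters, designs, DESeq2 1.42.0, and leaving out each library.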

Additional observations from a re-analysis of the deposited data

Results flagged for a closer look

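For 28 of the 38 members tested, the KO effect at 3w differed from that at 1w by the interaction test of edgeR's quasi-likelihood fit. Of all 14665 genes tested, 5215 were called by the same test, 17.6% with a higher effect at 3w and 17.9% with a lower one. The difference between the KO effects cannot be told apart from the split in Y-linked transcripts, which runs in opposite directions at the 2 ages.

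The difference (KO effect at 3w less that at 1w, log2) was above 0 for 17 members. Among glycoproteins it was 2.52 for Fbn2, 1.30 for Thbs4, 1.30 for Thbs1, 1.28 for Mfap4, 1.23 for Tnc, 0.96 for Postn, 0.57 for Fbln5, 0.25 for Fbn1 and 0.20 for Nid1. Among proteoglycans it was 1.09 for Vcan, 0.86 for Lum and 0.17 for Bgn. Laminin chains gave 0.54 for Lama4 and 0.18 for Lamb1. Proteases and their inhibitor gave 0.73 for Mmp14, 0.63 for Mmp2 and 0.33 for Timp2.

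The difference was below 0 for 11 members. It was -2.71 for Fmod, -1.22 for Fbln1, -1.19 for Lama5, -0.97 for Adamts5, -0.43 for Mfap5, -0.38 for Lamb2, -0.37 for Lama2, -0.35 for Adamts2, -0.33 for Eln, -0.22 for Dcn and -0.19 for Hspg2. The sign of the KO effect itself changed for Fbn2, Fmod, Fbln1, Lama5, Lamb2 and Lama2, and for Adamts5 the 3w effect of -0.12 was not called.

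The differences for Bgn, Lamb1, Mfap5 and Tnc depended on single libraries. That for Bgn was lost without control 1w replicate 1, control 3w replicate 2 or any 1 of the 4 KO libraries other than KO 3w replicate 1 (values 0.09 to 0.18). That for Lamb1 was lost without control 3w replicate 1, KO 1w replicate 2 or KO 3w replicate 2 (values 0.13 to 0.16). That for Mfap5 was -0.34 without control 3w replicate 2 and -0.27 without KO 3w replicate 1. That for Tnc was 0.64 without control 3w replicate 1. None of these 4 was called under the setting named.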

How the results depend on the processing

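No member's value that was called in either fit, and no members' median, changed direction under the 17 other settings. Of the members' values, 4158 kept their side of the threshold, 52 were no longer called and 8 became called. Where neither value was called, a change of direction was not counted. The members called higher or lower changed by at most 1.5 times except under the additive fit of age and KO, in which 0 rather than 3 members were lower over both ages and the calls for Fbn2, Fbln1, Lama2, Lama5, Lamb2, Fmod and Adamts5 were lost. That fit called 4506 genes over both ages rather than 7746. Under DESeq2, 4043 rather than 6305 genes were called at 1w and 3351 rather than 5215 for the difference between the KO effects, and the difference for Tnc was not called (DESeq2 adjusted p = 0.064, where the other settings gave 0.0066 to 0.37). The cause was not tested.

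Members' medians moved by more than the spread of replicates as follows. With upper-quartile scaling they were 0.80 for KO at 3w, 0.80 over both ages, -1.82 for age in control, -1.61 for age over both genotypes and 0.12 for the difference between the KO effects. With no filter on low counts they were 0.72 for KO at 1w, -1.40 for age in KO and 0.030 for the difference. A minimum count of 50 gave -1.77 for age in control, and the additive fit -1.55 for age over both genotypes. Leaving out 1 library at a time gave 0.67 to 0.72 for KO at 1w, 0.67 to 0.75 at 3w, 0.75 to 0.78 over both ages, -1.79 to -1.71 for age in control, -1.42 to -1.32 in KO, -1.58 to -1.54 over both and 0.057 to 0.096 for the difference. Members higher over both ages then numbered 34 to 35 and lower 2 to 3.

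With the replicate number as a block, 37 members were higher and 1 lower at 1w, 31 and 5 at 3w, and 35 and 3 over both ages, and no count moved by over 1.5 times (6172 genes called at 1w). The Thbs2 and Adamts1 differences between the KO effects were called with no filter or without some libraries. Tnc at 3w in control rests on 5 and 8 counts, which limits its fold.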

Other observations

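Matrix receptors, through which cells hold the proteins described above, were higher in KO for a majority of the list. All 27 on the list were tested: 15 were called higher and 5 lower in KO at 1w, and 16 and 3 at 3w, with median log2 fold changes of 0.16 and 0.50. Over all genes tested, 23% were higher and 20% lower at 1w, and 24.4% and 24.8% at 3w. Summed, the list came to 2029 and 2033 CPM in the 1w controls and 1996 and 1986 in the 1w KO libraries. The receptor sum at 3w was 2263 and 2278 in the controls and 2268 and 2275 in KO. Dystroglycan (Dag1), the laminin receptor of muscle membranes, was at 594 and 587 CPM in the 1w controls and 495 and 502 in the 1w KO libraries. Dag1 at 3w read 879 and 875 in the controls and 731 and 734 in the KO libraries, lower in KO by 0.24 at 1w and 0.26 at 3w on the log2 scale. Integrin α7 (Itga7), which binds laminin in muscle, was at 96.2 and 101 CPM in the 1w controls and 110.2 and 111 in the 1w KO libraries. Itga7 at 3w read 282 and 277 in the controls and 248 and 243 in the KO libraries, and rose with age in both genotypes (1.5 ± 0.035 in control and 1.15 ± 0.034 in KO), with KO effects of 0.16 ± 0.036 at 1w and -0.19 ± 0.033 at 3w. Integrin β1 (Itgb1), the common partner chain, was at 507 and 498 CPM in the 1w controls and 479 and 469 in the 1w KO libraries. Itgb1 at 3w read 462 and 492 in the controls and 453 and 474 in the KO libraries. KO was called lower at 1w (-0.08 ± 0.031, edgeR adjusted p = 0.024) and was not called at 3w (-0.04 ± 0.031). Bcam, which binds the laminin α5 chain, was at 263 and 275 CPM in the 1w controls and 303 and 301 in the 1w KO libraries. Bcam at 3w read 212 and 207 in the controls and 305 and 289 in the KO libraries. Its KO effect was 0.17 ± 0.033 at 1w and 0.50 ± 0.033 at 3w, where that of Lama5 was 0.30 ± 0.041 and -0.89 ± 0.038.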
